A study of Tupaia belangeri with 15 samples.

Results

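The cadherins and non-clustered protocadherins of the tree shrew (*Tupaia belangeri*, TS) retina were followed across cell classes, subtypes and 3 life stages in snRNA-seq counts. Members were all features named CDH or PCDH followed by a number alone, which left out antisense features, annotated copies, the clustered protocadherins and PCDH11X, a delta-1 protocadherin whose name ends in a letter. There were 32 members among 83605 features, of which 22 were cadherins and 10 protocadherins. By role they fell into 4 type I cadherins, 13 type II cadherins, 5 other cadherins, 2 delta-1 protocadherins, 5 delta-2 protocadherins and 3 other protocadherins. CDH1 and PCDH7 were not found under those names and were not analysed here.

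The study sequenced nuclei of 15 retinas with droplet 3′ chemistry, 5 each labelled Infancy, Mature and Senile, to describe retinal cell types over the postnatal lifespan. The labels name no agent, genotype or strain and give the stage in place of an age, and the animals were untreated. Each library was 1 retina whose frozen tissue had been homogenised, so the nuclei of all cell types shared 1 preparation. The p-values of stage tests measure the spread between these retinas. Those of class and subtype tests, where the retina was a block, measure how far differences between classes or subtypes vary over the retinas. Levels below are in CPM, the UMIs of a gene per 1000000 UMIs of the summed nuclei of a class in 1 retina. Gene lengths were not used, so levels are compared between classes, subtypes and stages and not between genes.

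Total UMIs per retina ran from 13429873 to 58734300, and 111825 nuclei were kept. They comprised 33541 amacrine cells (ACs), 31864 bipolar cells (BCs), 14775 cones, 6202 Müller cells, 5482 retinal ganglion cells (RGCs), 1473 horizontal cells (HCs), 1325 astrocytes, 1035 rods, 821 microglia and 15307 nuclei left unnamed. The clusters behind these names were built without any cadherin or catenin feature. The naming markers held no member, but FAT4, a cadherin outside the members, counted among those of ACs and named an AC subtype. The unnamed share was 44.1% in Senile 3 and 32.3% in Mature 4, above the 6.49% to 23.0% of the other retinas, and values without both are given with the stage results. The summed cone markers had a median of 9259 CPM in cones against medians of 84.9 to 495.9 CPM in the other classes, and the summed rod markers 7683 CPM in rods against 14.7 to 257.3 CPM elsewhere. Of 118622 distinct barcodes, 1793 occurred in more than 1 library, with at most 30 shared by any pair.

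Cadherins are calcium-dependent adhesion proteins whose extracellular repeats bind the same or related cadherins on the neighbouring cell. The classical type I and type II members are tied to actin through catenins, and their combinations help neurons of different types to find their layers and partners. In the mouse retina, for example, CDH8 and CDH9 mark different BC types and direct their axons to different sublaminae of the inner plexiform layer. CDH2 (N-cadherin) holds the junctions between photoreceptors and Müller cells. PCDH15 and CDH23 form the tip links of hair cells, and both genes are mutated in Usher syndrome, which joins deafness to loss of photoreceptors.

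The 32 members together held 2368045 UMIs, 0.614% of all UMIs of the kept nuclei. The 5 with most UMIs, PCDH15, PCDH9, CDH18, CDH2 and CDH20, held 82.3% of these. At the other end, 4 members (CDH4, CDH11, CDH12 and CDH17) were listed at 0 of 385772929 UMIs, which allows up to 0.00778 CPM over all nuclei from counting error alone. CDH15, CDH16, CDH26 and PCDH12 held 11 to 41 UMIs, and these 8 members entered no test. Antisense features named after CDH12 nevertheless held 3449 UMIs, and those named after PCDH10 held 21013 UMIs beside the 26435 of PCDH10 itself.

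CDH23 was represented mainly by a copy in this annotation. The feature CDH23 held 342 UMIs and its annotated copy CDH23li1 held 13948, so values of CDH23 do not describe the whole gene. CDH23 reached at most a mean of 2.64 CPM, in HCs. The copy stood at 371 CPM in Müller cells, 46.4 CPM in ACs, 28.9 CPM in microglia and 25.3 CPM in HCs. PCDH19 was also split, with 7597 UMIs against 6427 in its copy, and its values below are uncertain to that extent.

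Members were then compared between the 9 classes, to ask which cells carry which adhesion gene. A member was called higher in a class at an adjusted p below 0.05 and a log2 fold change above 1. The test was the edgeR quasi-likelihood test with the retina as a block. The fold change was taken against the mean of the log levels of the other classes. A class could thus be called although another held more, as for PCDH15 in ACs (mean 1568 CPM) beside cones (mean 7258 CPM). Of the 32 members, 19 passed the filter on low counts, and 50 of their 171 tests were called (29.2%), against 14.6% of the tests of all features. At least 1 class was called for 17 of the 19, and the matching share of all features was not counted. The calls were uneven over classes. Of the 19 members, 15 were called in ACs (16.6% of all features there), 10 in BCs (13.4%) and 10 in RGCs (18%). HCs had 5 (11.8%), rods 3 (10.7%), Müller cells 3 (18.2%), astrocytes 2 (15.2%), cones 1 (15.8%) and microglia 1 (11.7%). The highest mean level lay in ACs for 8 members and in RGCs for 5, and the lowest lay in cones for 13. For some of the 5 the means of ACs were close, such as PCDH8 at 35.49 CPM in RGCs and 35.48 CPM in ACs. The matching shares of all features were not counted.

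**Figure D1:**
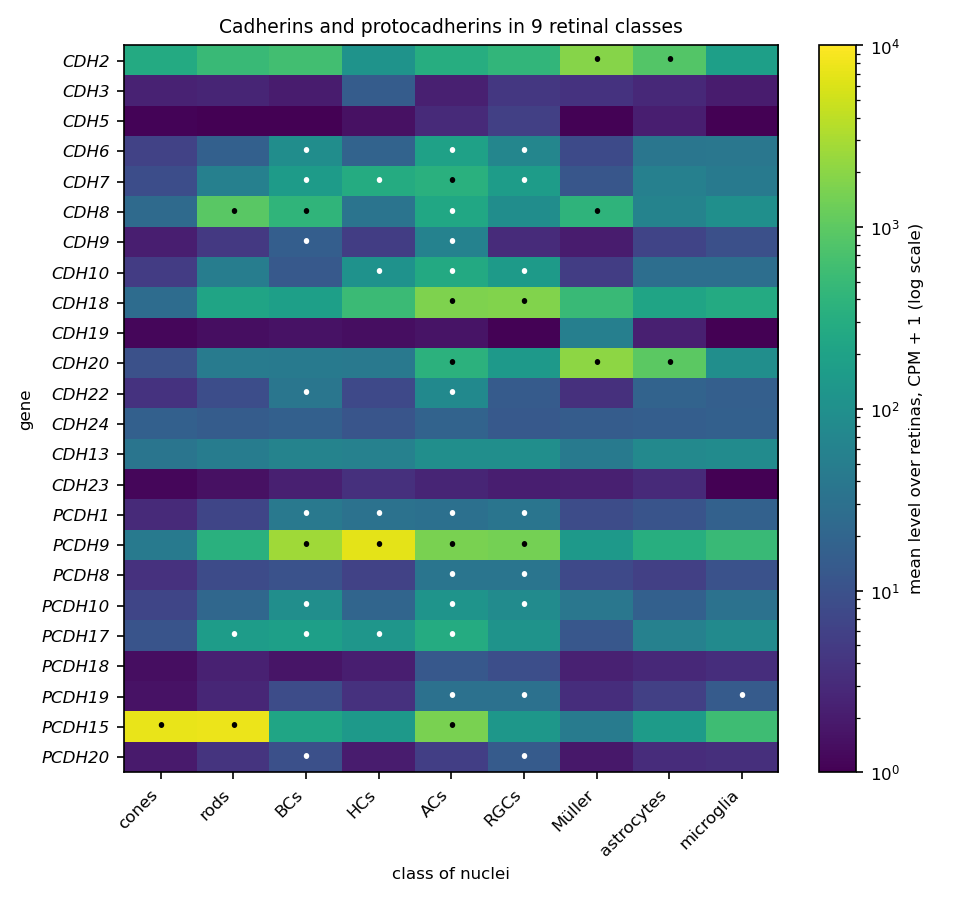
Mean level over retinas of the members with the most UMIs (rows) in the 9 named classes (columns), as CPM + 1 on a log color scale. Dots mark the members called higher in a class, 15 of them in ACs and 1 in cones.

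PCDH15, the tip-link protocadherin, marked both kinds of photoreceptor. In cones its level ran from 4787 to 11120 CPM with a median of 7026, and in rods from 5026 to 11230 CPM with a median of 7762. The log2 fold change was 4.47 ± 0.124 (SE) in cones and 4.33 ± 0.131 in rods (edgeR adjusted p = 5.05e-66 and 2.56e-61). ACs also passed, at a mean of 1568 CPM and a log2 fold change of 2.01, whereas Müller cells held 45.6 CPM. Microglia stood at 581 CPM, spread from 64.4 to 2092, and the cone markers ran from 183.7 to 2124 CPM in the same nuclei; their part in that value was not tested.

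CDH8, a type II cadherin, separated the photoreceptors. Rods held 281 CPM at the lowest, 988 at the median and 1555 at the highest of 14 retinas, and were the highest class in 13 of them. The log2 fold change in rods was 3.01 ± 0.141 (edgeR adjusted p = 1.07e-41), and cones held a mean of 23.1 CPM. CDH8 was also called in BCs (407 ± 162 CPM, SD, n = 15), Müller cells (398 ± 101 CPM) and ACs (237 ± 29.2 CPM). An antisense feature of CDH8 stood at 496 CPM in rods. The delta-2 protocadherin PCDH17 was called in rods as well, at 160 ± 48.8 CPM (log2 fold change 1.12).

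Müller cells were set apart by CDH20 and CDH2. CDH20, a type II cadherin, ran from 1332 to 2858 CPM there with a median of 2012, and CDH2 from 1638 to 2390 CPM with a median of 1827. Müller cells were the highest class for each in 15 of 15 retinas. The log2 fold changes were 4.86 ± 0.121 for CDH20 and 2.66 ± 0.0672 for CDH2 (edgeR adjusted p = 2.46e-71 and 1.32e-70). Astrocytes, the other macroglia, also carried both at lower levels, with CDH20 at 985 ± 299 CPM (log2 fold change 3.46) and CDH2 at 850 ± 164 CPM (1.10). CDH19, singled out after its values were seen and too low for the test, had its highest mean in Müller cells as well, at 51.5 ± 41.7 CPM against class means of at most 1.28 CPM elsewhere. Its Müller level varied widely, from 1.61 to 132 CPM per retina, and overlapped the highest retinas of other classes, which reached 13.0 CPM in astrocytes.

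PCDH9, a delta-1 protocadherin, was highest in HCs in 15 of 15 retinas. Its lowest, median and highest levels in HCs were 5156, 6472 and 9020 CPM, with a log2 fold change of 4.07 ± 0.121 (edgeR adjusted p = 1.33e-62). The other retinal interneurons and RGCs passed too, at means of 2641 CPM in BCs, 1585 CPM in ACs and 1456 CPM in RGCs, while cones held 43.6 CPM. HCs also called CDH7 (291 ± 90.0 CPM, log2 fold change 2.60) and CDH10 (107 ± 64.0 CPM, 2.17), both type II cadherins. CDH3 (P-cadherin), the gene of a juvenile macular dystrophy, was too low for the test and is named after its values were seen. Its mean was 13.5 CPM in HCs, from 79 UMIs, and at most 3.39 CPM in any other named class. The HC retinas ran from 0 to 28.5 CPM and overlapped those of other classes, which reached 13.0 CPM in astrocytes. The unnamed nuclei held 618 of its 1199 UMIs, at 0 to 30.1 CPM per retina.

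ACs carried the widest set. Those that met the call and were the highest of all classes in at least 14 of 15 retinas were 4 type II cadherins, CDH9, CDH10, CDH6 and CDH22, and PCDH17. CDH10 ran from 213 to 298 CPM (median 265, log2 fold change 3.56 ± 0.117) and CDH9 from 41.5 to 82.7 CPM (median 59.8, 4.25 ± 0.150). CDH6 ran from 149 to 239 CPM (median 191, 3.25 ± 0.135), CDH22 from 33.3 to 136 CPM (median 76.1, 3.10 ± 0.112) and PCDH17 from 223 to 385 CPM (median 271, 2.31 ± 0.0836). The adjusted p of these 5 in edgeR lay between 1.29e-68 and 2.72e-48. Within a gene the spread between retinas was smallest for CDH10, whose SD was 27.1 CPM on a mean of 265.

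In RGCs, CDH18, a type II cadherin, stood at 1750 ± 282 CPM, beside 1686 ± 264 CPM in ACs (log2 fold changes 2.85 and 2.79), and the higher of the pair varied between retinas. PCDH19, the delta-2 gene of an epilepsy of girls, was at 29.6 ± 3.50 CPM in ACs and 30.3 ± 6.52 CPM in RGCs (2.84 and 2.92). PCDH8, another delta-2 member, was at 35.5 CPM in both. PCDH20 had its highest mean in RGCs, 12.8 ± 8.45 CPM (2.65). The microglial call of PCDH19 rested on 24 UMIs in 15 retinas.

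BCs had no member that met the rule for naming by class. PCDH1, a delta-1 protocadherin, had its highest mean there, at 39.9 ± 7.64 CPM, and BCs were the highest class for it in 7 of 15 retinas. Among the members tested, CDH13 and CDH24 were called in no class. CDH24, a type II cadherin, had class means between 10.3 and 17.4 CPM. CDH13, a cadherin anchored by a lipid instead of a membrane-spanning segment, had class means from 34.3 CPM in cones to 95.5 CPM in RGCs. In the unnamed nuclei it ran from 93.5 to 207.8 CPM, with a median of 150.1.

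CDH5 (VE-cadherin), the adhesion protein of endothelium, was low in every class. It reached 4.72 ± 3.58 CPM in RGCs and 1.95 ± 2.12 CPM in ACs, and was listed at 0 in rods and microglia. No cluster was named endothelium, and the summed level of 6 endothelial markers was highest in Müller cells, at 750 to 1469 CPM, where CDH5 held 1 UMI. KDR, among these markers, was also a leading gene of the Müller cluster, so the sum there need not mark endothelium. PCDH18 was likewise below the filter, with 11.5 ± 7.45 CPM in ACs and 8.10 ± 5.12 CPM in RGCs.

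The same test was then run within classes, each subtype against the mean log level of the other subtypes of its class. There were 27 subtypes, most named after a marker of their nuclei and the others by what remained of a class, such as the other GABAergic ACs. The thresholds behind the names were set after marker values were seen, though not those of the members. Of 385 tests of 18 members, 108 were called (28.1%), against 6.57% of the tests of all features. BCs gave 21 calls in 80 tests (6.81% of all features), ACs 60 in 187 (7.72%), RGCs 22 in 90 (3.09%), HCs 3 in 10 (8.99%) and photoreceptors 2 in their 18 (7.13%). PCDH17 was called in the most subtypes, 12, and CDH2 in the fewest among the called, 2.

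**Figure D2:**
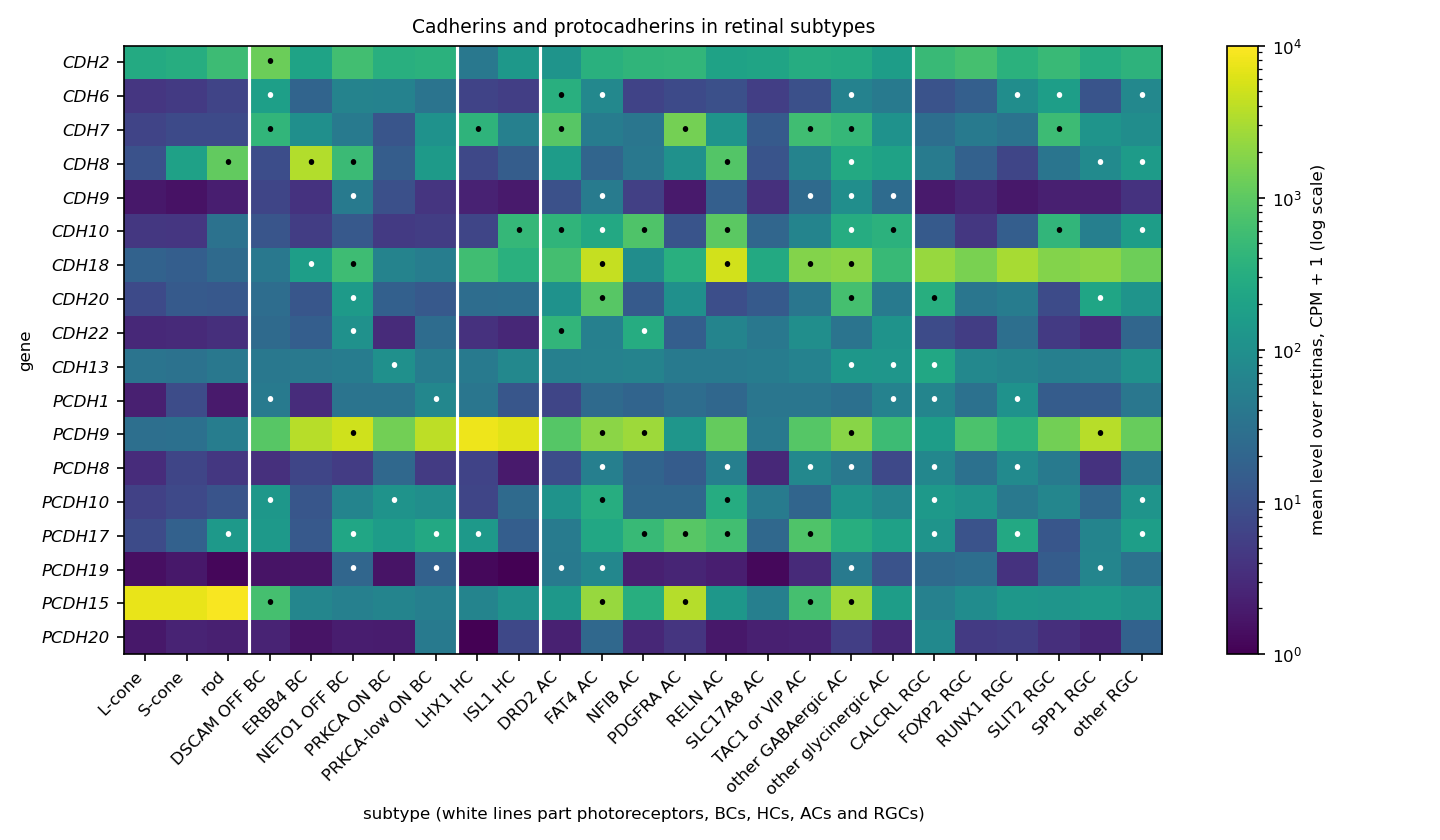
Mean level over retinas of members (rows) in the subtypes of each class (columns), as CPM + 1 on a log color scale. Dots mark members called higher against the mean log level of the other subtypes of the class. Neighbouring subtypes of 1 class carried different sets, such as CDH8 in ERBB4 BCs and CDH7 in DSCAM OFF BCs.

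Among BCs, CDH8 was concentrated in the ERBB4 BCs (1786 nuclei), at 2700 to 4817 CPM with a median of 3194, against means of 7.67 CPM in DSCAM OFF, 153 CPM in PRKCA-low ON and 532 CPM in NETO1 OFF BCs. Its log2 fold change there was 5.96 ± 0.0793 (edgeR adjusted p = 3.77e-68), the largest among BCs, and its lowest ERBB4 retina exceeded the highest retina of each other BC subtype. DSCAM OFF BCs (7821 nuclei) instead carried CDH7 (290 to 570 CPM, log2 fold change 3.27 ± 0.0696), PCDH15 (227 to 1176 CPM, 3.72 ± 0.130) and CDH6 (114 to 225 CPM, 2.34 ± 0.0972). CDH2 was higher in DSCAM OFF BCs too, at 1285 ± 155 CPM (1.93 ± 0.0499). The adjusted p of these 4 in edgeR lay between 3.17e-54 and 3.69e-35.

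NETO1 OFF BCs (5402 nuclei) gave 8 of the 21 BC calls (7.92% of all features there). CDH20 led with 90.0 to 248 CPM (log2 fold change 3.36 ± 0.144), followed by PCDH19 (8.66 to 40.4 CPM, 3.20 ± 0.201) and CDH9 (6.55 to 87.3 CPM, 3.15 ± 0.171). The wide range of CDH9 divided by stage, as described below. CDH18, CDH22, CDH8, PCDH17 and PCDH9 made up the rest. PRKCA ON BCs (8055 nuclei), which carry the rod BC marker, called CDH13 (29.9 to 160 CPM, 1.26) and PCDH10 (62.8 to 171 CPM, 1.13). PRKCA-low ON BCs (5801 nuclei) called PCDH19 (7.68 to 29.6 CPM, 2.91), PCDH1 (49.1 to 92.0 CPM, 1.79) and PCDH17 (182 to 379 CPM, 1.44). PCDH20 was below the filter and is named after its values were seen: its mean was 42.4 CPM in PRKCA-low ON BCs and at most 1.51 CPM in each other BC subtype, with no overlap with PRKCA ON BCs in 15 retinas.

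A subtype mean could hide a division among finer clusters. The 12 BC subclusters of at least 1000 nuclei are therefore described, without a test, by the first gene that led each one, and the members of this paragraph and the next were chosen after their values were seen. For each such member the high and low sets were cut at the largest gap between the log means of the subclusters. The means of the 2 sets were thus apart by construction. PCDH9 was high in 9 subclusters, with means of 1457 to 5508 CPM and no retina below 1183. It was low in 3, with means of 57.1 to 113 CPM and no retina above 452.7. The 3 low ones were led by TSHR and ABCB4, both PRKCA ON, and by MEIS2, a DSCAM OFF subcluster. CDH8 stood at means of 667 to 3530 CPM in 4 subclusters, led by ERBB4, EBF1, NXPH1 and PLCB1, and at 5.38 to 40.2 CPM in the other 8. The retinas of the 2 sets did not overlap, at no less than 494 CPM in the first and no more than 99.0 CPM in the second. CDH2 was high in 3 subclusters (913 to 1593 CPM), NCAM2 and MEIS2 of DSCAM OFF and CSMD1 of NETO1 OFF, and stood at 171 to 367 CPM in the other 9.

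By their means, some members were concentrated in 1 or 2 of the 12 subclusters. CDH13 had a mean of 382 CPM in the PTPRK-led PRKCA ON subcluster and 37.3 to 58.8 CPM in the other 11. By stage its level there was 483, 547, 557, 599 and 623 CPM in Infancy, 176, 414, 355, 352 and 538 CPM in Mature, and 489, 109, 121, 173 and 192 CPM in Senile retinas. Senile 1 lay within the Infancy range and the other Senile retinas lay below it. This has no test, and CDH13 in PRKCA ON BCs as a whole did not pass in Senile against Infancy (log2 fold change -0.81, edgeR adjusted p = 0.278). CDH9 had a mean of 202 ± 144 CPM in the NXPH1-led NETO1 OFF subcluster and means of at most 13.3 CPM in the others, and CDH18 had its highest mean in that same subcluster at 1339 CPM. For both the retinas overlapped: the lowest in that subcluster was 14.5 CPM for CDH9 and 594 CPM for CDH18, against a highest retina elsewhere of 108.5 and 600.5 CPM. PCDH19 was present in the EBF1-led and PLCB1-led subclusters (54.5 and 74.4 CPM), which belong to NETO1 OFF and PRKCA-low ON BCs, and was at most 1.17 CPM in the other 10. CDH7 was high in both DSCAM OFF subclusters (409 and 460 CPM).

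**Figure D3:**
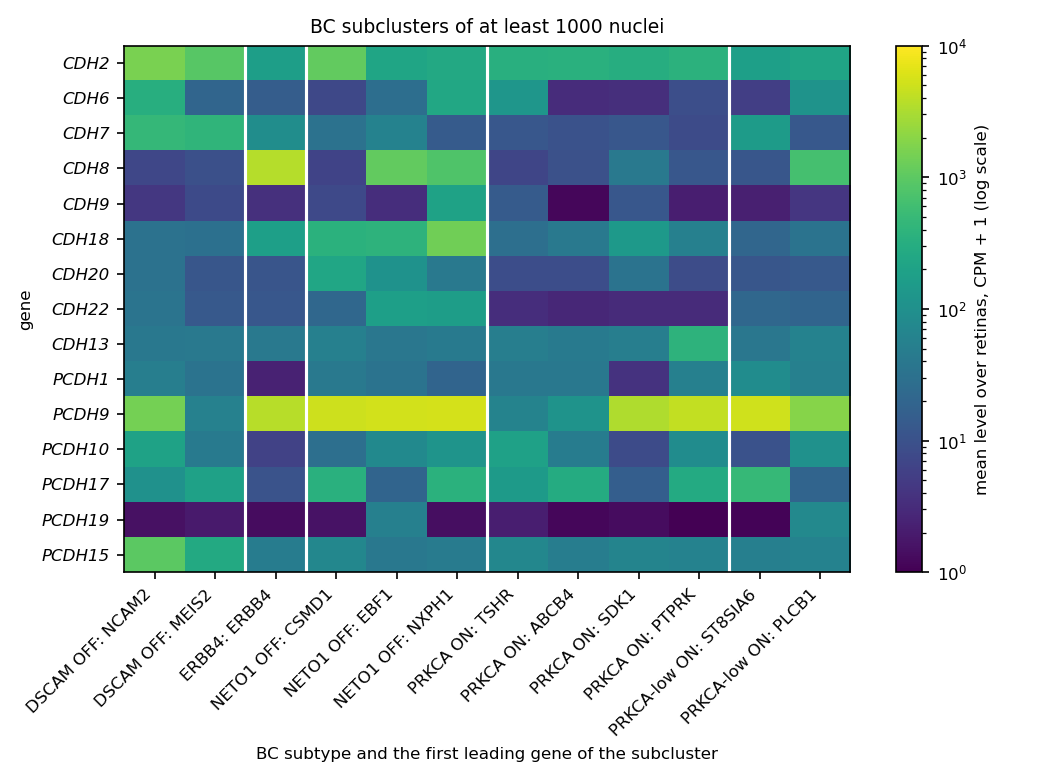
Mean level over retinas of members (rows) in the 12 BC subclusters of at least 1000 nuclei (columns, grouped by subtype and named by their first leading gene), as CPM + 1 on a log color scale. PCDH9 is low in 3 subclusters and CDH9 stands out in the NXPH1-led one.

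The 2 kinds of HC carried different cadherins. In the 9 retinas with at least 10 ISL1 HCs, CDH10 ran from 284 to 706 CPM in ISL1 HCs and from 0 to 25.5 CPM in LHX1 HCs (log2 fold change 6.06 ± 0.292, edgeR adjusted p = 7.77e-19). LHX1 HCs carried CDH7, at 239 to 526 CPM against 28.6 to 92.5 CPM in ISL1 HCs, and PCDH17, at 89.1 to 217 CPM against 0 to 61.7 CPM. The log2 fold changes of these were 2.59 ± 0.191 and 3.63 ± 0.389 (edgeR adjusted p = 8.19e-13 and 5.11e-10). The retinas of the subtypes did not overlap for any of the 3 genes.

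Rods and L-cones were parted by CDH8. In the 14 retinas with at least 10 rods, rods held 316 to 1797 CPM and L-cones 1.46 to 46.3 CPM, without overlap. The log2 fold change of rods against the cone subtypes was 4.96 ± 0.200 for CDH8 and 3.71 ± 0.195 for PCDH17 (edgeR adjusted p = 1.84e-25 and 6.48e-22). S-cones had a mean of 194 CPM of CDH8 with a span from 5.40 to 657 CPM, which overlapped both. CDH2 was higher in rods (mean 543 CPM) than in L-cones (279 CPM) in all 14, below the fold required for a call. PCDH15 had means of 9009 CPM in rods and 7160 CPM in L-cones, higher in rods in 14 of 14 although the ranges overlapped.

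**Figure D4:**
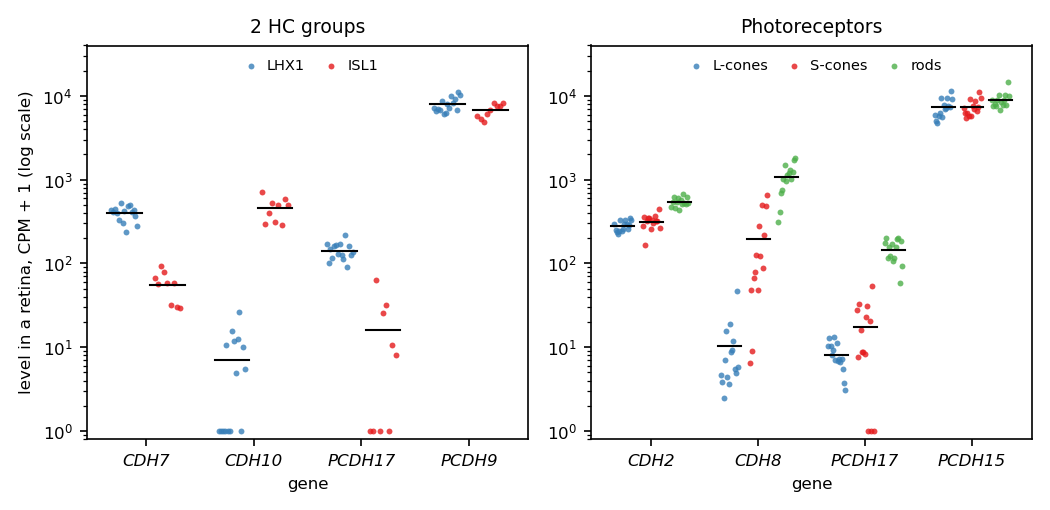
Level per retina (points, on a log scale) of members in subtypes of 1 class, as CPM + 1, with short bars at the means. CDH10 and CDH7 trade places between the 2 HC subtypes, and CDH8 is high in rods and low in L-cones.

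Most AC subtypes called several members, some of them shared. The CDH18 level was highest in RELN ACs (4274 to 6694 CPM, log2 fold change 2.995 ± 0.0571) and next in FAT4 ACs (3598 to 5892 CPM, 2.86 ± 0.0544). RELN ACs also called CDH10 (964 ± 194 CPM, 3.34) and CDH8 (862 ± 253 CPM, 3.20). FAT4 ACs gave 10 calls (8.45% of all features), led by CDH20 (923 ± 132 CPM, 4.35), PCDH19 (68.8 ± 19.4 CPM, 3.48) and PCDH15 (2388 ± 395 CPM, 3.26). PDGFRA ACs carried CDH7 (1465 ± 220 CPM, 3.94), PCDH15 (3563 ± 889 CPM, 3.81) and PCDH17 (915 ± 217 CPM, 2.41). DRD2 ACs, marked by a dopamine receptor, carried CDH6 (330 ± 103 CPM, 3.89), CDH7 (916 ± 181 CPM, 3.26) and CDH22 (432 ± 88.0 CPM, 3.23). Each of these was called against the mean log level of the other AC subtypes, with edgeR adjusted p of at most 8.48e-49.

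NFIB ACs called CDH10 (783 ± 137 CPM, log2 fold change 2.98), CDH22 (295 ± 58.5 CPM, 2.37) and PCDH9 (2584 ± 332 CPM, 2.22). TAC1 or VIP ACs, named for their neuropeptides, called CDH7 (596 ± 124 CPM, 2.48), PCDH8 (73.4 ± 48.8 CPM, 2.27) and PCDH17 (792 ± 192 CPM, 2.14). The other GABAergic ACs, 10752 nuclei of several clusters, gave 12 calls (8.93% of all features), led by CDH20 (649 ± 121 CPM, 3.69), CDH9 (93.0 ± 21.7 CPM, 3.63) and PCDH15 (2645 ± 365 CPM, 3.32). The other glycinergic ACs were led by CDH10 (365 ± 79.1 CPM, 1.86), CDH9 (24.2 ± 15.8 CPM, 1.43) and PCDH1 (59.0 ± 31.8 CPM, 1.16). The adjusted p of these 12 was at most 6.34e-08 in edgeR. SLC17A8 ACs, which express a vesicular glutamate transporter, called none of the 17 tested (7.68% of all features), and PCDH1 alone was higher there at an unadjusted p below 0.05 (log2 fold change 0.65).

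Among the ACs left unnamed, 20.5% of the class, 2 subclusters stood out by CDH6, which had a mean of 195 CPM over all ACs. The CNIH3-led subcluster (1098 nuclei) held 1400 to 2416 CPM of CDH6, and the CALCRL-led subcluster (1159 nuclei) held 703 to 1231 CPM of CDH6 together with 398 to 1216 CPM of CDH9. CDH9 in the CNIH3-led subcluster was at most 26.1 CPM in any retina. These were chosen after their values were seen and have no test.

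RGC subtypes were scarcer, with values in 12 to 15 retinas. SLIT2 RGCs stood out by CDH10 (313 to 535 CPM, log2 fold change 4.26 ± 0.110), CDH7 (371 to 711 CPM, 3.43 ± 0.0928) and CDH6 (65.4 to 254 CPM, 2.82 ± 0.110), with edgeR adjusted p from 2.89e-59 to 6.03e-42. SPP1 RGCs were led by PCDH9 (3720 ± 594 CPM, 2.56), CDH20 (221 ± 97.8 CPM, 2.20) and PCDH19 (65.7 ± 15.8 CPM, 2.05). CALCRL RGCs were led by CDH20 (317 ± 117 CPM, 2.87), CDH13 (253 ± 59.4 CPM, 1.94) and PCDH8 (69.7 ± 38.8 CPM, 1.40). RUNX1 RGCs were led by PCDH17 (263 ± 85.9 CPM, 2.61), PCDH1 (109 ± 47.4 CPM, 2.13) and CDH6 (91.4 ± 27.1 CPM, 1.79). In the other RGCs CDH8 (154 ± 39.0 CPM, 2.60), CDH10 (165 ± 31.3 CPM, 2.54) and PCDH17 (174 ± 49.9 CPM, 1.92) led, with edgeR adjusted p of at most 4.13e-14 for the leading genes of these 5 subtypes. FOXP2 RGCs called none of 15 (3.26% of all features), with 3 higher at an unadjusted p below 0.05 by log2 fold changes of at most 0.88.

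The stages were compared within each class, to ask which members differ between them. By the study's methods, the Senile animals were bought from another institute than the one that supplied the Infancy and Mature animals. Stage and animal source therefore cannot be told apart in any contrast with Senile retinas. Most did not pass the test. Senile against Infancy gave 3 calls in 122 tests of 24 members, all higher (1.58% of all features; 25 of the 122 at an unadjusted p below 0.05). Mature against Infancy gave 1 call in the 122 (1.28%; 18 unadjusted), also higher. Senile against Mature gave 0 with edgeR (0.0897%; 11 unadjusted) and 1 with DESeq2. The 2 contrasts with Infancy share the Infancy retinas. The calls were CDH9 in BCs, CDH8 in cones and CDH18 in Müller cells.

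CDH9 in BCs was low in Infancy and higher in both later stages. The Infancy retinas held 6.32, 5.29, 2.80, 5.14 and 6.03 CPM, the Mature retinas 18.9, 17.3, 18.8, 25.1 and 22.2 CPM, and the Senile retinas 26.6, 13.3, 16.8, 19.6 and 16.8 CPM. No Infancy retina overlapped a later one, and the Mature and Senile retinas overlapped each other. The log2 fold change against Infancy was 1.96 ± 0.220 in Mature and 1.84 ± 0.230 in Senile (edgeR adjusted p = 0.000111 and 0.000103). Without Mature 4 and Senile 3 these were 1.90 and 1.90, both still called. The Infancy retinas also stayed apart within the libraries of each Cell Ranger version. In ACs, the class with the highest CDH9, the stage means were 59.5, 56.2 and 59.7 CPM with SDs of at most 17.4, a log2 difference of -0.15 ± 0.158 in Senile against Infancy. The difference between BCs and ACs in the change had an exact two-sided permutation p of 0.00794 in each contrast, the smallest that 5 against 5 retinas allow, and an adjusted p of 0.0571 over 18 such tests. The rest of these tests set CDH8 in cones and CDH18 in Müller cells against each other class, in Senile against Infancy. Their adjusted permutation p ran from 0.0571 to 0.492.

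Within BCs, CDH9 passed in both contrasts in NETO1 OFF BCs. There the Infancy retinas held 15.2, 6.55, 11.9, 15.5 and 10.4 CPM, the Mature retinas 55.9, 67.6, 52.2, 53.7 and 76.1 CPM, and the Senile retinas 87.3, 36.7, 30.9, 54.6 and 62.3 CPM. The stages did not overlap between Infancy and later, with log2 fold changes of 2.30 ± 0.262 in Mature and 2.20 ± 0.280 in Senile (edgeR adjusted p = 9.66e-05 and 0.000271). PRKCA ON BCs also passed for Mature against Infancy (2.52, edgeR adjusted p = 0.0118). Their levels were low, at 1.07 to 4.22 CPM in Infancy and 4.68 to 27.7 CPM in Mature retinas, so the Infancy values rest on few UMIs. In the NXPH1-led subcluster, looked at after its values were seen and without a test, CDH9 had a mean of 30.2 CPM in Infancy, 280 CPM in Mature and 295 CPM in Senile, with Infancy retinas at 14.5 to 65.7 CPM and no later retina below 187. Its share of the NETO1 OFF nuclei was 19.8% to 21.5% in Infancy, 19.8% to 24.2% in Mature and 13.7% to 20.0% in Senile retinas, so that the ranges overlapped. ACs were the class with the highest CDH9 mean, and AC markers in NETO1 OFF BCs were at 99.3 to 181.5 CPM (median 160.3) in Infancy, 83.2 to 227 CPM (median 220.3) in Mature and 128 to 538 CPM (median 358) in Senile retinas. Their part in the CDH9 values was not tested.

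**Figure D5:**
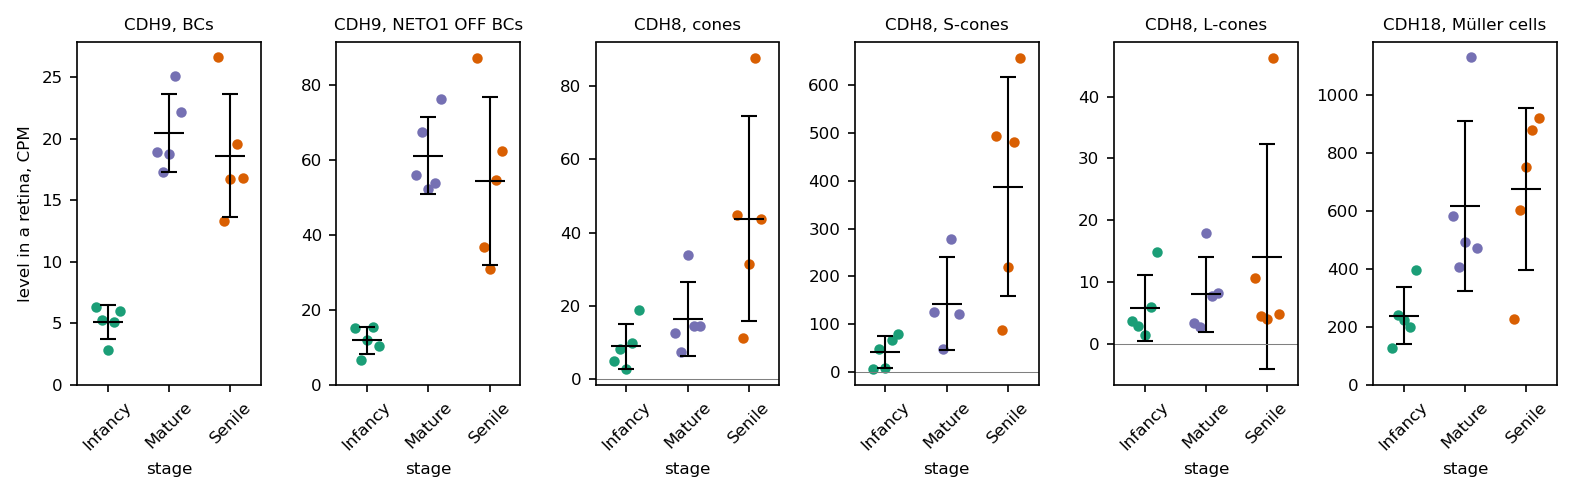
Level per retina (points) with the stage mean and SD (bars) of CDH9 in BCs and NETO1 OFF BCs, CDH8 in all cones, S-cones and L-cones and CDH18 in Müller cells, in CPM by stage. The 5 Infancy retinas lie below all later ones for CDH9, and the Infancy and Mature ranges of CDH8 in S-cones overlap.

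CDH8 in cones was the second call. The Infancy retinas held 4.87, 8.07, 2.66, 9.93 and 18.9 CPM, the Mature retinas 12.5, 7.29, 33.8, 14.5 and 14.6 CPM, and the Senile retinas 44.8, 11.3, 31.5, 87.7 and 43.7 CPM. Senile 2 lay within the Infancy range, and the other 4 Senile retinas lay above it. The log2 fold change of Senile against Infancy was 2.05 ± 0.421 (edgeR adjusted p = 0.0115), and 2.24 without Mature 4 and Senile 3. The call was lost without the Cell Ranger version term (2.14, adjusted p = 0.0523) and without Infancy 4 (1.90, adjusted p = 0.0618). Within each version no Senile retina fell into the Infancy range.

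The cone subtypes were then tested apart. CDH8 in S-cones was 5.40, 47.2, 7.93, 66.7 and 78.6 CPM in Infancy, 126, 47.4, 278 and 121 CPM in the 4 Mature retinas with enough nuclei, and 493, 88.0, 219, 482 and 657 CPM in Senile. No Senile retina overlapped an Infancy one (log2 fold change 3.09 ± 0.481, edgeR adjusted p = 0.00116). The S-cone values rested on 12 (Infancy 5) to 121 (Mature 1) nuclei per retina, so low values carry counting error. The highest Infancy value, 78.6 CPM, was that of the 12 nuclei and lay near the lowest Senile value, 88.0 CPM. L-cones did not pass, with 1.46 to 14.8 CPM in Infancy and 3.92 to 46.3 CPM in Senile (0.98, adjusted p = 0.566). In rods, where CDH8 is high, Infancy retinas held 316, 410, 684, 755 and 1026 CPM and the 4 Senile retinas 1026, 1223, 1736 and 1797 CPM (0.98 ± 0.236, adjusted p = 0.0366). These subtype fits were added after the data were seen, and in the fit by class CDH8 in rods did not pass (0.75 ± 0.275, adjusted p = 0.214).

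The sum of PDE6A, PDE6B, NR2E3 and ESRRB, all rod markers, overlapped between stages in S-cones. It was 10.8 to 27.2 CPM in Infancy and 8.76 to 26.1 CPM in Senile retinas. This is not the set of 5 rod markers summed by class above, which ran from 169 to 413 CPM in cones. S-cones made up 3.05% to 6.37% of cones in Infancy and 3.62% to 6.72% in Senile retinas. The antisense feature of CDH8 did move with it, with S-cone medians of 23.8, 67.8 and 280 CPM over the 3 stages. The part of these values in the result was not tested.

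CDH18 in Müller cells was the third call and the least stable. The Infancy retinas held 129, 242, 224, 201 and 398 CPM, the Mature retinas 585, 407, 493, 1132 and 473 CPM, and the Senile retinas 228, 604, 752, 879 and 920 CPM. All Mature retinas lay above the Infancy range, as did 4 of the 5 Senile ones. The log2 fold change of Senile against Infancy was 1.25 ± 0.311 (edgeR adjusted p = 0.0482), and 1.30 without Mature 4 and Senile 3. The adjusted p crossed the threshold in 13 of 24 alternatives and ranged from 0.00726 to 0.511, with log2 fold changes of 0.77 to 1.48. AC markers in Müller cells ran from 46.9 to 78.2 CPM in Infancy, 60.7 to 106 CPM in Mature and 28.4 to 79.1 CPM in Senile retinas, and RGC markers from 11.1 to 124, 22.6 to 71.1 and 39.1 to 91.6 CPM. Their part in the CDH18 values was not tested.

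Within subtypes further members passed the stage test, chosen as an alternative after the data were seen, with 9 of 306 tests in Senile against Infancy (0.995% of all features) and 4 of 306 in Mature against Infancy (0.781%). In L-cones PCDH15 was higher in Senile than in Infancy (log2 fold change 0.63, edgeR adjusted p = 0.0249) and PCDH17 lower (-1.12, adjusted p = 0.0441). PCDH17 was also lower in Mature other glycinergic ACs (-0.62, adjusted p = 0.0359), and higher in Senile PRKCA ON BCs (0.54, adjusted p = 0.0427). CDH10 was lower in Mature NFIB ACs (-0.52, adjusted p = 0.0379). PCDH17 in L-cones was low, at 7.08 to 11.8 CPM in Infancy and 2.05 to 6.17 CPM in Senile retinas. In PRKCA ON BCs it ran from 112.5 to 152 CPM in Infancy and 141 to 231 CPM in Senile retinas, with overlap. The ranges also overlapped in other glycinergic ACs, at 192 to 270 CPM in Infancy and 132 to 196 CPM in Mature retinas. The sign of its change thus differed between subtypes, and the difference between them was not tested.

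PCDH15 was lower in Senile than in Infancy retinas in 2 RGC subtypes. In RUNX1 RGCs the Infancy retinas held 119, 169, 192, 300.4 and 285 CPM, the 3 Mature ones 93.1, 28.3 and 157 CPM, and the Senile ones 46.8, 23.2, 81.7, 152 and 31.6 CPM. The values of Infancy 4 and Infancy 5 rested on 11 nuclei each. Senile 4 overlapped the Infancy range and the other 4 lay below it (log2 fold change -2.19 ± 0.303, edgeR adjusted p = 7.56e-05). In CALCRL RGCs the 4 Infancy retinas ran from 47.6 to 112 CPM and the 5 Senile ones from 3.72 to 50.8 CPM. The ranges overlapped (-2.71 ± 0.510, edgeR adjusted p = 0.00567). Senile 3 rested on 13 nuclei, and the lowest Senile values on few UMIs. The Infancy and Senile means were 63.4 and 73.5 CPM in FOXP2, 150 and 106 CPM in SLIT2, 130 and 137 CPM in SPP1 and 102.5 and 121 CPM in other RGCs. Cone markers in RUNX1 RGCs ran from 19.6 to 219 CPM in Infancy (median 54.9) and from 27.2 to 174 CPM in Senile retinas (median 104), with overlap. In CALCRL RGCs cone markers ran from 22.0 to 139 CPM (median 51.8) and from 67.7 to 151 CPM (median 113). The part of cone markers in the PCDH15 values was not tested.

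The binding partners were counted for comparison. Of 12 catenins and adaptors, 11 were tested in each class, and 6 were called higher in Müller cells (18.2% of all features there), among them CTNNA1 and CTNNA3, beside CDH2 and CDH20. Over all classes 15 of their 99 tests were higher by the class call, near the 14.6% of all features. Other members of the cadherin superfamily gave 19 higher calls in 81 tests, against the same 14.6%. Their list holds FAT4, which also served in naming ACs. CDHR1, a photoreceptor cadherin, was higher in cones and rods.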

How the data were processed

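Nuclei of 15 retinas were profiled by 3′ snRNA-seq, 5 per stage by the labels. The authors deposited 1 matrix per retina of UMI counts, whole numbers made with Cell Ranger against TS_3.0 and not normalized. The version was 6.1.2 or 7.0.1 in the file headers, while the submitters' processing notes also list 5.0.1, and it differed within each stage. RGCs made up 6.50% to 9.99% of nuclei in the 6.1.2 retinas and 0.593% to 3.30% in the 7.0.1 retinas. The version thus cannot be told apart from other differences between these sets of retinas. Whether intronic reads were counted is not given in the sources used here, and it bears on nuclear RNA.

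Of 120437 barcodes, 119765 met the limits of the study (genes detected between 200 and 6000, mitochondrial share below 5%). Doublets (7940) were removed by the share of simulated doublets among neighbours in expression space, at an assumed rate that grows with the nuclei loaded. Nuclei were normalized, joined over retinas by a Harmony-type correction on 30 components of 2000 variable genes and clustered by Leiden (leidenalg 0.10.2, resolution 2) into 143 clusters. Cell names therefore differ from those of the study, and thresholds for naming were set after marker values were seen.

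UMIs were summed per retina and class or subtype (at least 10 nuclei) and tested with edgeR 4.0.16 in R 4.3.3 (quasi-likelihood, TMM, filterByExpr), with the retina as block for classes and subtypes and the Cell Ranger version as covariate for stages. Adjusted p-values (Benjamini-Hochberg) run over all features tested in a contrast. Depth was 13429873 to 58734300 UMIs per retina with medians of 1461 to 5611 per nucleus, and low members carry counting error. Alternatives were DESeq2 1.42.0, other size factors, no filter, doublets kept, other minima of nuclei, naming nucleus by nucleus (the nucleus gate), leaving out retinas, no version or retina term, and the replicate number as a block. The ones without Mature 4 and Senile 3 and within subtypes were chosen after the data were seen. The test of stages in BCs and a test of BCs against other classes were checked on simulated data. The remaining fits use the same code.

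Members, partner lists, markers and the naming rule were chosen with earlier results of these data known. Genes were named by class where called and highest in at least 80% of retinas (at most 5), by subtype (at most 3), where called between stages, and for CDH2, CDH8, CDH23, PCDH15 and CDH5 in any case. Some AC subtypes and the genes of the tip-link complex are not reported here. Sex is not in the labels and was not used. No sequences are printed, since no genome of the build of the files was used here.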

Additional observations from a re-analysis of the deposited data

Results flagged for a closer look

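Among 45 tests of stage groups of 4 or 5 retinas over 15 member and class pairs, 4 retinas stood far from the others of their group by Dixon's criterion, where chance alone sets apart about 1 group in 20. CDH18 in Müller cells was 1132 CPM in Mature 4, against 407 to 585 CPM in the other 4 Mature retinas. CDH8 in cones was 33.8 CPM in Mature 3, against 7.29 to 14.6 CPM in the others of that stage. CDH2 in Müller cells was 1912 CPM in Infancy 5, against 1720 to 1764 CPM. CDH23 in HCs was 10.1 CPM in Senile 1 and 0 in the other 4, which rests on 2 UMIs against counts of 0, where the criterion is met by construction. No cause of these values was tested.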

How the results depend on the processing

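The counts of class and subtype calls were the steadiest. The 50 class calls became 40 under the nucleus gate, where each nucleus is named by its own highest marker score, and 61 at any log2 fold change above 0, and 47 to 53 when 1 retina was left out. The 108 subtype calls ranged from 106 to 133 under the other alternatives (133 with no filter, over 736 tests against 385) and from 107 to 112 without 1 retina, but reached 166 at any log2 fold change above 0. Senile against Infancy moved from 3 calls to 6 with DESeq2, 8 with no filter on low counts (233 tests against 122), 1 without the Cell Ranger version term, 5 without Mature 4 and Senile 3, and 9 within subtypes (306 tests). Leaving out 1 retina gave 1 to 5 calls, with 1 when Infancy 4 and 5 when Senile 1 was out. Mature against Infancy moved from 1 call to 2 with DESeq2, 5 with no filter, 2 without Mature 4 and Senile 3, and 4 within subtypes. Leaving out 1 retina gave 1 to 2, with 2 when Mature 3, Mature 5 or Senile 1 was out. Senile against Mature moved from 0 to 1 with DESeq2 and 4 with no filter, and stayed at 0 without any 1 retina. No filter and subtypes also bring more tests; the cause of the other moves was not tested. Of 1687 alternative values of 76 named results, 1671 kept their direction and side of the threshold, 16 lost the call and 0 reversed. The lost values were 13 of CDH18 in Müller cells, 2 of CDH8 in cones and 1 of CDH18 in ERBB4 BCs (log2 fold change 0.97 with no filter). CDH18 in Müller cells lost its call with doublets kept, under the nucleus gate, without the version term, and without Infancy 1, 3, 4 or 5, Mature 1 or 2, or Senile 2, 3, 4 or 5. With a replicate block, Senile against Infancy gave 4 calls, Mature against Infancy 2 and Senile against Mature 0. Correlations cannot decide whether the numbers pair the retinas, since most numbers also share a Cell Ranger version. In ACs the deviations of 13 of 15 same-number pairs correlated above 0.1. Their mean was 0.261, against -0.065 for different numbers, and the lowest was -0.46. In ACs 3 of 15 retinas correlated best with their own number, and in cones 6 of 15. Retinas numbered 1, 2, 4 or 5 shared their version with those of the same number, and its part in these correlations was not tested. The nucleus gate was not run for subtypes. The members below the filter rest on few UMIs, and rods, microglia, astrocytes and HCs on few nuclei. Small differences between stages were mostly not detectable even in BCs, an abundant class, so a member that did not pass may still differ.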
